A study of Rattus norvegicus with 6 samples.

Results

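The genes that make nitric oxide and receive it in the vessel wall were followed in the thoracic aorta of hypertensive rats. There are 10 of them: the nitric oxide synthases Nos1, Nos2 and Nos3, the cofactor enzyme Gch1, the arginase Arg1, the hydrolases Ddah1 and Ddah2, the soluble guanylate cyclase subunits Gucy1a1 and Gucy1b1, and the kinase Prkg1. They were chosen by name, as the probe sets whose platform annotation gives one of these symbols and no other gene. Each gene has 1 probe set, so 10 of the 28879 probe sets on the array represent them, and all 10 were among the 21659 bright enough to be tested. They are 10 of 18166 named genes on the array, and of 15281 with a tested probe set.

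The spontaneously hypertensive rat (SHR), inbred for a blood pressure that climbs with age, was set against the Wistar-Kyoto rat (WKY), the related strain with normal pressure. Both were 24 weeks old and received no treatment, and the thoracic aorta was freed of fat and connective tissue before RNA extraction. RNA of 3 SHR and 3 WKY samples was hybridised to 6 Affymetrix Rat Gene 2.0 ST arrays. Whether each array stands for another animal is not in the labels, so the spread behind the p-values may be technical.

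Nitric oxide is made from arginine by the nitric oxide synthases, which need tetrahydrobiopterin as a cofactor. In the aorta the endothelial enzyme is the main source in health. The gas diffuses into smooth muscle and binds the haem of soluble guanylate cyclase, a heterodimer that then makes cyclic GMP, and cyclic GMP activates a protein kinase that relaxes the muscle. Methylated arginines such as asymmetric dimethylarginine inhibit the synthases, and dimethylarginine dimethylaminohydrolases break them down.

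All levels are log2 values after robust multi-array averaging (RMA), and a difference of 1 is a doubling. No detection call comes with them. The array medians, 2.29 to 2.52, are used below as a landmark for dim probe sets. Contractile smooth muscle genes were bright on every array, with a mean over 6 measured markers of 9.33 to 9.68 in SHR and 9.55 to 9.71 in WKY. Fat, endothelial and nerve genes varied between arrays of the same strain. The mean of 8 white adipocyte markers ran from 4.03 to 7.67 in SHR and from 5.97 to 7.37 in WKY. The mean of 7 neuron markers was 6.14 on SHR replicate 1, against 2.25 and 2.29 on the other SHR arrays and 2.08 to 2.42 on the WKY arrays. Values were most compressed on WKY replicate 3 (SD 2.12 across its probe sets), where the other arrays had SDs of 2.22 to 2.27.

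Of the 10 genes, Ddah1 stood farthest apart between the strains, with an SHR level 2.25 times that of WKY. Gucy1a1, Ddah2 and Nos2 lay lower on all 3 SHR arrays than on any WKY array, by differences of -0.43, -0.28 and -0.45 on the log2 scale. Nos3, Gucy1b1, Gch1, Nos1, Arg1 and Prkg1 overlapped between the strains. None of the 10 passed limma's test at an adjusted p under 0.05 over all tested probe sets, and the smallest adjusted p was 0.0974, for Ddah1. Of all tested probe sets 0.0693% passed, so a count of 0 among 10 genes is what that background share would give. At an unadjusted p under 0.05 there were 3 of the 10 (Ddah1, Nos2 and Gucy1a1), against 5.55% of all tested probe sets, 1 higher in SHR (3.01% of all) and 2 lower (2.54%). The strains did not overlap for 4 of the 10, against 12.1% of all tested probe sets, 1 higher in SHR (6.48% of all) and 3 lower (5.61%). The median difference of the 10 genes was -0.32, with 8 below 0, beside a median of -0.01 over all tested probe sets. With 10 genes these counts are a description.

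**Figure D1:**
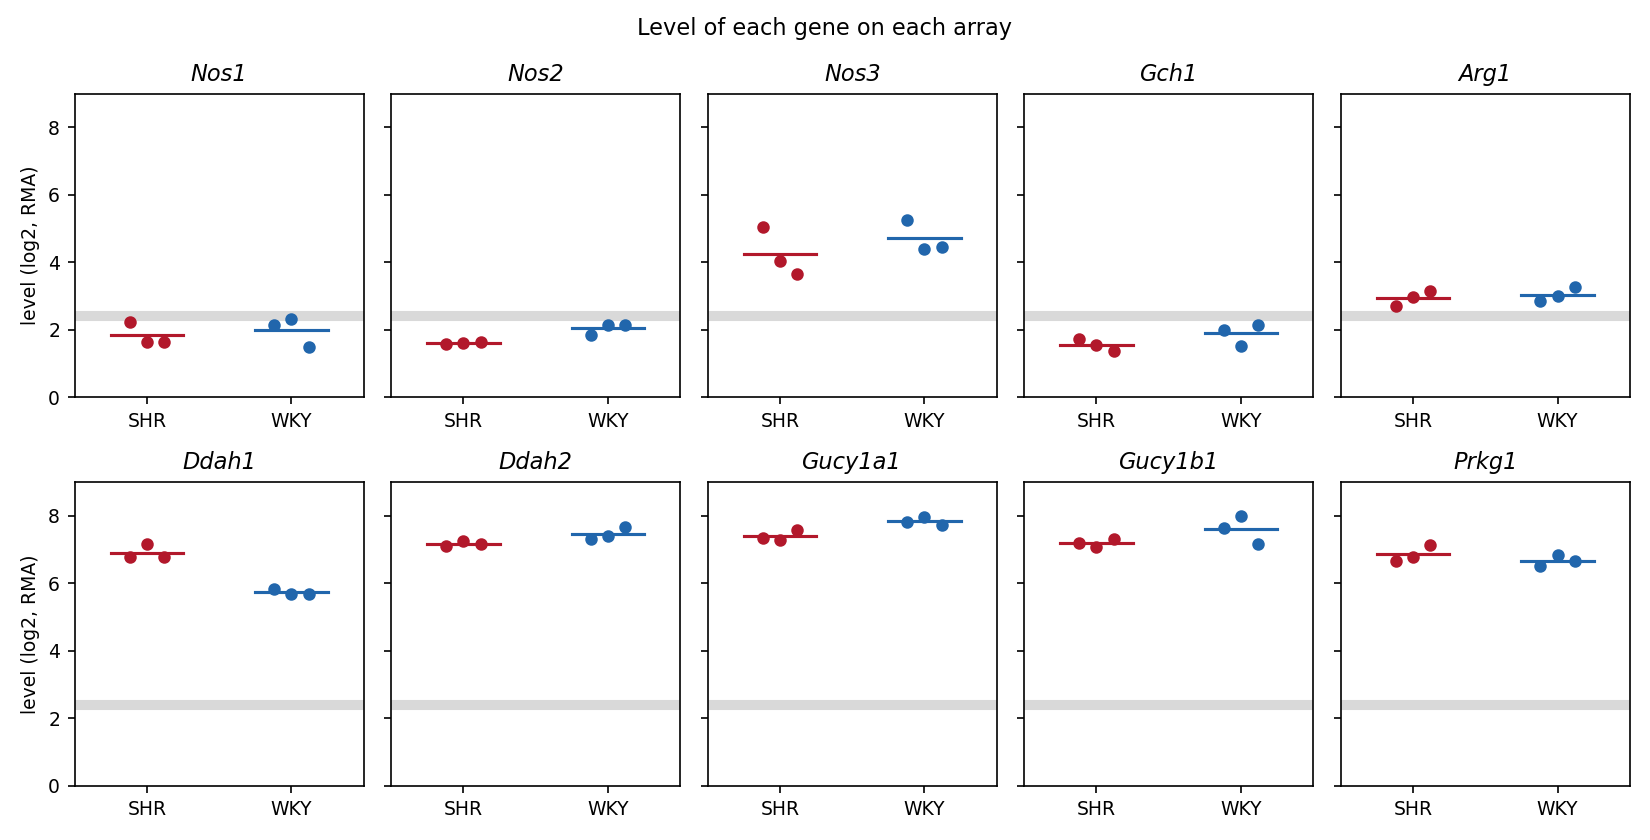
Level of each of the 10 genes on each array (vertical axis, log2 after RMA), with the 3 SHR arrays in red on the left and the 3 WKY arrays in blue on the right. Lines are strain means and the grey band spans the array medians from 2.29 to 2.52. Ddah1 is the gene with a wide gap between the strains, and Nos1, Nos2 and Gch1 lie at or under the grey band.

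Ddah1 encodes dimethylarginine dimethylaminohydrolase 1, which degrades asymmetric dimethylarginine. Its level was 6.78, 7.15 and 6.78 on SHR replicates 1 to 3, against 5.83, 5.68 and 5.68 on WKY replicates 1 to 3. The lowest SHR array lay 0.94 above the highest WKY array. The measured difference was 1.17 ± 0.16 (SE) on the log2 scale, with a 95% interval from 0.79 to 1.55, or a fold of 1.73 to 2.93. The unadjusted p was 0.000132 in limma, rank 28 of 21659 tested probe sets, and the adjusted p of 0.0974 did not pass. A gap between the strains at least as wide was found at 37 tested probe sets, Ddah1 included, 34 of them higher in SHR. Without any 1 of the arrays the difference stayed between 1.05 and 1.24. The adjusted p was 0.0251, past the threshold, when limma weighted the arrays by their fitted quality.

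The level of Ddah1 was 6.78, 7.15 and 6.78 on SHR replicates 1 to 3. On these arrays the neuron markers averaged 6.14, 2.25 and 2.29 and the endothelial markers 6.04, 4.72 and 4.21. With the mean of the endothelial markers as a covariate the Ddah1 difference was 1.16. It was 1.18 with that of the white adipocyte markers. With that of the smooth muscle markers, a setting added after seeing the data, it was also 1.18. Whether the mix of cells has a part in the Ddah1 difference was not tested. The stretch before the transcription start of Ddah1 is shown because this gene carries the widest difference of the set. It comes from RefSeq, covers 250 bases before the annotated start at chr2:237327562-237327811 of GRCr8, plus strand, and is written 5′ to 3′. The genome build used to design the probes is not stated.

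Ddah1: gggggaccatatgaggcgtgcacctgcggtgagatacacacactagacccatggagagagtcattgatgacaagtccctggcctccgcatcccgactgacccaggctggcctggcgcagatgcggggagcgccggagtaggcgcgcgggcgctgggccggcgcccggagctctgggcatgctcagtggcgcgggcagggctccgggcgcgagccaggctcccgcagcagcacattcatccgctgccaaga

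The bases were searched on both strands for GGGCGG (the core of a GC box), CCAAT and TATAAA, and capitals would mark a match. The Ddah1 stretch held none of the 3, while GGGCGG was found in 30.5%, CCAAT in 34.0% and TATAAA in 12.9% of 33469 rat promoter stretches of the same length. Its GC content was 68.8%.

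The genes next to Ddah1 were read in RefSeq order, 3 named and measured genes on each side, a choice made after the level of Ddah1 was known. Ccn1, a matricellular protein gene that responds to stretch and growth factors, lay on the other side of the comparison. It had 7.01, 7.57 and 8.58 on the SHR arrays, against 8.91, 9.53 and 9.02 on the WKY arrays, and its difference of -1.44 ± 0.39 (SE) had an adjusted p of 0.577 in limma. Znhit6, beyond Ccn1, differed by 0.25, and its lowest SHR array exceeded its highest WKY array by 0.01. Bcl10, an adaptor of immune signalling and the nearest named gene on the far side, averaged 5.84 ± 0.13 in SHR and 5.87 ± 0.49 in WKY (SD, n = 3 each). Col24a1, C2h1orf52 and Mcoln3 differed by -0.14, -0.07 and -0.03. Mcoln3 was dim, below the median of every array, and Col24a1 lay below it on all but SHR replicate 3 and WKY replicate 3. Of the 6 neighbours only Ccn1 had an unadjusted p under 0.05 in limma, against 5.55% of all tested probe sets. Ccn1 and Znhit6 did not overlap between the strains, against 12.1% of all tested probe sets.

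**Figure D2:**
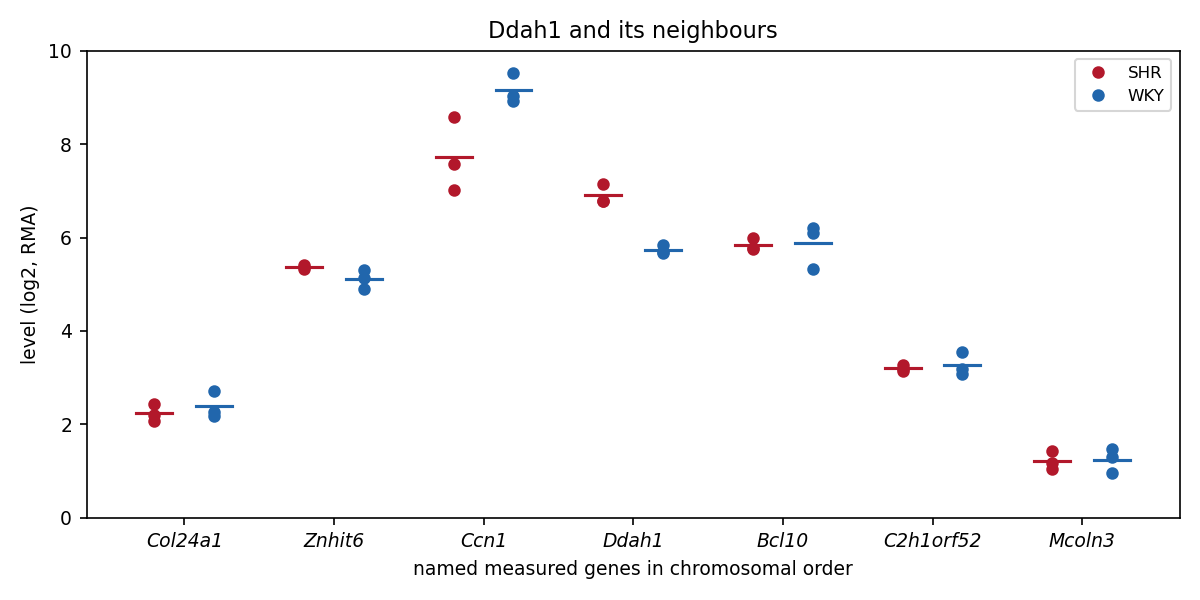
Level (vertical axis, log2 after RMA) of Ddah1 and of the 3 named measured genes on each side of it, in chromosomal order along the horizontal axis, with SHR arrays in red on the left and WKY arrays in blue on the right of each pair. Lines are strain means. Ddah1 lies higher in SHR and its neighbour Ccn1 lies lower.

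Ddah2 encodes the second hydrolase of the family. It had 7.10, 7.26 and 7.15 on the SHR arrays, against 7.30, 7.39 and 7.66 on the WKY arrays. The 3 SHR arrays were the lowest, but the gap to the nearest WKY array was only 0.04. The difference was -0.28 ± 0.16 (SE), with a 95% interval from -0.64 to 0.08 and a limma adjusted p of 0.923. The intervals of Ddah1 and Ddah2 do not overlap, though the difference between the 2 genes was not tested. Without WKY replicate 3 the Ddah2 difference was -0.18.

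Nos3, the endothelial nitric oxide synthase, had 5.04, 4.04 and 3.65 on SHR replicates 1 to 3, against 5.26, 4.39 and 4.45 on WKY replicates 1 to 3. The strains overlapped, with SHR replicate 1 above both WKY replicates 2 and 3. The difference was -0.46 ± 0.39 (SE), with a 95% interval from -1.37 to 0.45 and a limma adjusted p of 0.923. It ranged from -0.86 without SHR replicate 1 to -0.17 without SHR replicate 3, and was -0.18 without WKY replicate 1.

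Marker means of endothelium, fat and macrophages varied with Nos3 from array to array. The mean of the 8 measured markers (Cdh5, Tek, Tie1, Vwf, Egfl7, Cldn5, Emcn and Esam, of 10 listed) was 6.04, 4.72 and 4.21 on the SHR arrays and 5.97, 5.46 and 5.29 on the WKY arrays. Within each strain the array with the most Nos3 was also the one with the highest marker mean, and in SHR both had the same order. In WKY the order differed, since Nos3 was lowest on replicate 2 and the marker mean on replicate 3. The means of the white adipocyte, macrophage and brown adipocyte markers had the order of Nos3 in both strains. So did the neutrophil mean, which lay near the array medians, at 1.87 to 2.51. On the SHR arrays Mpo (5.97, 4.25 and 3.06) and Csf3r had this order, and S100a8, S100a9, Elane and Camp did not. Among the brown adipocyte markers Ucp1, Cidea and Cox8b had it on the SHR arrays, and Elovl3 and Dio2 did not. The white adipocyte mean was 7.67, 5.67 and 4.03 on the SHR arrays and 7.37, 5.97 and 6.06 on the WKY arrays. The macrophage mean was 6.17, 4.68 and 3.75 on the SHR arrays and 5.48, 4.54 and 4.70 on the WKY arrays. In bulk tissue, fewer endothelial cells and less RNA per cell cannot be told apart. Nos3 minus the marker mean was -1.01, -0.68 and -0.56 in SHR, against -0.70, -1.07 and -0.84 in WKY. This relative level spanned 0.51 over the 6 arrays, while Nos3 itself spanned 1.61 and the marker mean 1.83. It differed by 0.12 between the strains (exact permutation test, two-sided, p = 0.5), and with 3 arrays against 3 the smallest p possible is 0.1. With the marker mean as a covariate in limma the Nos3 difference was 0.02 ± 0.19 (SE, adjusted p = 0.978). It was -0.18 ± 0.18 (SE, adjusted p = 0.843) with the white adipocyte mean in its place. With the smooth muscle mean, a setting added after seeing the data, it was -0.87 ± 0.21 (SE, adjusted p = 0.229). The Nos3 difference thus ran from -0.87 to 0.02 over these 3 fits, and it did not pass with any of them. Within both strains the smooth muscle mean had the opposite order to the endothelial mean. It was 9.33, 9.57 and 9.68 on the SHR arrays and 9.55, 9.62 and 9.71 on the WKY arrays.

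**Figure D3:**
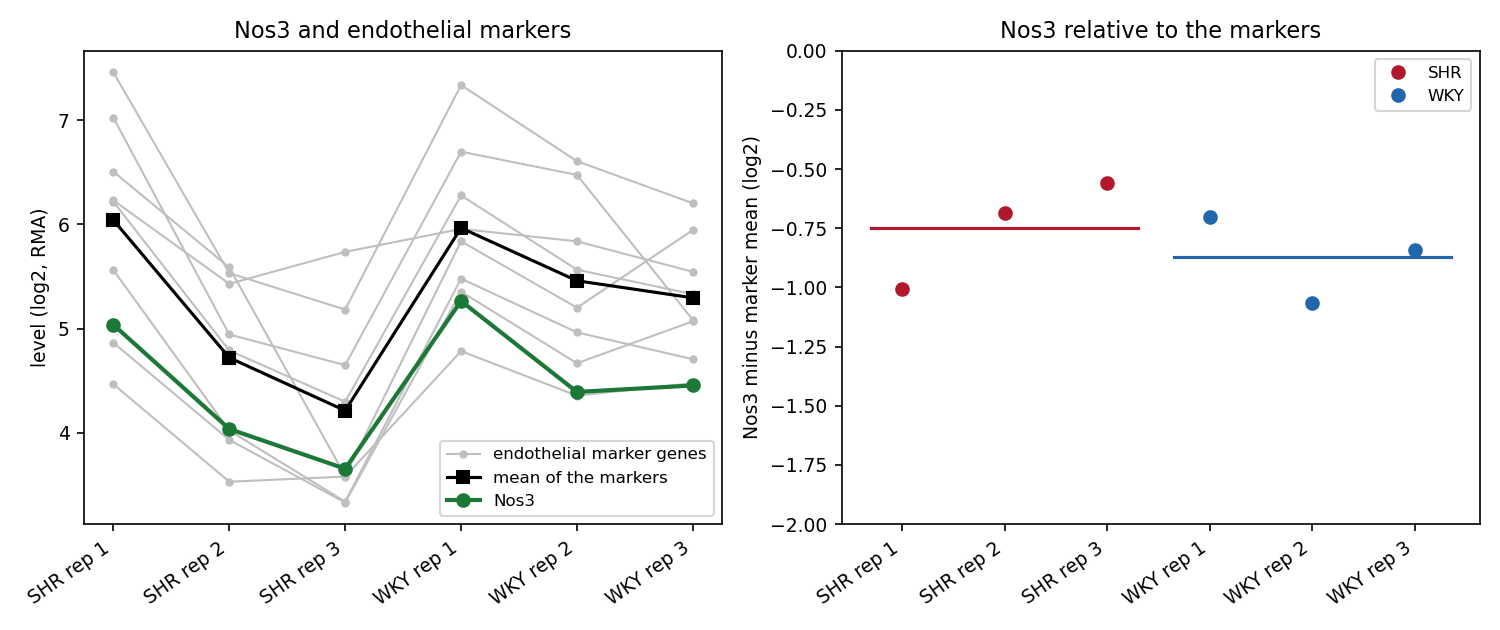
Left, level (log2 after RMA) of Nos3 in green, of 8 endothelial marker genes in grey and of their mean in black on each of the 6 arrays. Right, Nos3 minus the marker mean on the same arrays, SHR in red and WKY in blue, with lines for the strain means of -0.75 and -0.87. Nos3 spans 1.61 over the arrays and 0.51 once the marker mean is subtracted.

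Nos1, the neuronal synthase, and Nos2, the inducible synthase of inflamed tissue, were dim. Nos1 had 2.23, 1.64 and 1.64 on the SHR arrays, against 2.14, 2.32 and 1.47 on the WKY arrays. WKY replicate 2 lay just above the median of its array and the other values lay below theirs. SHR replicate 1, with its high neuron markers, lay between WKY replicates 1 and 2 for Nos1. The Nos1 difference of -0.14 had a 95% interval from -0.77 to 0.49. Leaving out any 1 array moved it by more than 1.5 times, between -0.39 without WKY replicate 3 and 0.030 without WKY replicate 2.

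Nos2 had 1.57, 1.59 and 1.63 on the SHR arrays, against 1.86, 2.13 and 2.14 on the WKY arrays. The strains did not overlap, and the difference was -0.45 ± 0.15 (SE, limma adjusted p = 0.761). All 6 values lay below the medians of their arrays, so neither strain is shown to express Nos2 above background and the difference is not an estimate of a fold in RNA. The 8 macrophage markers averaged 4.87 ± 1.22 in SHR and 4.91 ± 0.50 in WKY (SD over arrays, n = 3 each), with SHR arrays both above and below those of WKY.

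Gch1 encodes GTP cyclohydrolase 1, which makes the first intermediate of tetrahydrobiopterin. It had 1.71, 1.54 and 1.35 on the SHR arrays, against 1.99, 1.53 and 2.15 on the WKY arrays. All 6 values lay below the array medians and the strains overlapped (difference -0.35, 95% interval from -0.83 to 0.12, limma adjusted p = 0.923). The difference was -0.53 without WKY replicate 2 and -0.23 without WKY replicate 3.

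Arg1, the arginase that competes with the synthases for arginine, had 2.71, 2.96 and 3.14 on the SHR arrays, against 2.86, 3.0 and 3.25 on the WKY arrays. The values lay little above the array medians and interleaved between the strains. The difference of -0.10 had a 95% interval from -0.52 to 0.32, and its sign turned on leaving out SHR replicate 1 (0.015) or WKY replicate 3 (0.0069). It was -0.20 without SHR replicate 3 and -0.19 without WKY replicate 1.

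Gucy1a1 and Gucy1b1 encode the alpha1 and beta1 subunits of soluble guanylate cyclase, which pair to bind haem and nitric oxide. Gucy1a1 had 7.34, 7.28 and 7.58 on the SHR arrays, against 7.81, 7.96 and 7.74 on the WKY arrays. Each SHR array lay below each WKY array, with a gap of 0.16. The difference was -0.43 ± 0.15 (SE), a level 0.74 times that of WKY with a 95% interval from 0.58 to 0.95 times. The unadjusted p was 0.0231 and the limma adjusted p of 0.818 did not pass.

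Gucy1b1 had 7.19, 7.08 and 7.31 on the SHR arrays, against 7.65, 7.98 and 7.16 on the WKY arrays. WKY replicate 3 lay among the SHR arrays and the other 2 WKY arrays lay above all of them. The difference was -0.40 ± 0.22 (SE), with a 95% interval from -0.93 to 0.12 and a limma adjusted p of 0.923. Leaving out WKY replicate 3 gave -0.62, and leaving out WKY replicate 2 gave -0.21.

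The balance of the 2 subunits was compared as Gucy1a1 minus Gucy1b1 on each array, which was 0.15, 0.21 and 0.27 in SHR, against 0.16, -0.03 and 0.58 in WKY. Its change between the strains was -0.03 (exact permutation test, two-sided, p = 0.9). Smooth muscle markers, which stand for the cells that make the enzyme, averaged 9.53 ± 0.18 in SHR and 9.62 ± 0.08 in WKY (SD over arrays, n = 3 each). With their mean as a covariate, added after seeing the data, Gucy1a1 differed by -0.40 and Gucy1b1 by -0.44. That mean spanned only 0.38 over the arrays. Whether the amount of smooth muscle has a part in the subunit differences was not tested.

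The subunit genes are neighbours on chromosome 2 in RefSeq order, both on the minus strand. The 250 bases before each annotated start are shown because the 2 genes form 1 enzyme and had similar differences. They lie at chr2:169779624-169779873 for Gucy1a1 and chr2:169696988-169697237 for Gucy1b1 in GRCr8. They are taken from RefSeq and written 5′ to 3′ on the minus strand, with GGGCGG and CCAAT on either strand in capitals.

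Gucy1a1: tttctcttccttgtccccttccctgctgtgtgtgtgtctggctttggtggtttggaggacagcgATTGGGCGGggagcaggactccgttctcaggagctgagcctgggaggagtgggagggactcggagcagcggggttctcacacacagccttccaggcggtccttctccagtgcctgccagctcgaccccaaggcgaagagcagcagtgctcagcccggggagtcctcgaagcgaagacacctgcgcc

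Gucy1b1: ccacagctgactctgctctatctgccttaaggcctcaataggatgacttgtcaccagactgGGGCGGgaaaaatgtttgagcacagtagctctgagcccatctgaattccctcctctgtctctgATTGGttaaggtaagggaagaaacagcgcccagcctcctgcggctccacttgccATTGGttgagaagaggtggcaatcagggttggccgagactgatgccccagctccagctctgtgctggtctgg

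Both held 1 GGGCGG on the forward strand, 183 bases before the start in Gucy1a1 and 189 in Gucy1b1. CCAAT was found on the reverse strand, where it reads ATTGG, 186 bases before the start in Gucy1a1, overlapping GGGCGG, and 126 and 72 bases before it in Gucy1b1. Neither held TATAAA. These matches are letters in a window and are not shown to be bound.

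Beyond Gucy1a1, the neighbours Map9, Rbm46 and Lrat differed by 0.17, -0.22 and 0.35, and beyond Gucy1b1, Asic5 and Pdgfc differed by -0.04 and -0.11. All 5 of these neighbours, read in the same way as those of Ddah1, overlapped between the strains, as did Gucy1b1. Of all tested probe sets 12.1% did not overlap. Asic5 and Rbm46 were dim, below the median of every array, so their values give no fold.

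Prkg1 encodes cyclic GMP-dependent protein kinase 1, the main target of cyclic GMP in smooth muscle. It had 6.65, 6.79 and 7.13 on the SHR arrays, against 6.50, 6.85 and 6.65 on the WKY arrays. The strains overlapped and the difference was 0.19 ± 0.18 (SE), with a 95% interval from -0.24 to 0.61. Without SHR replicate 3, the highest array, it was 0.05, without WKY replicate 1 it was 0.10 and without SHR replicate 1 it was 0.29.

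**Figure D4:**
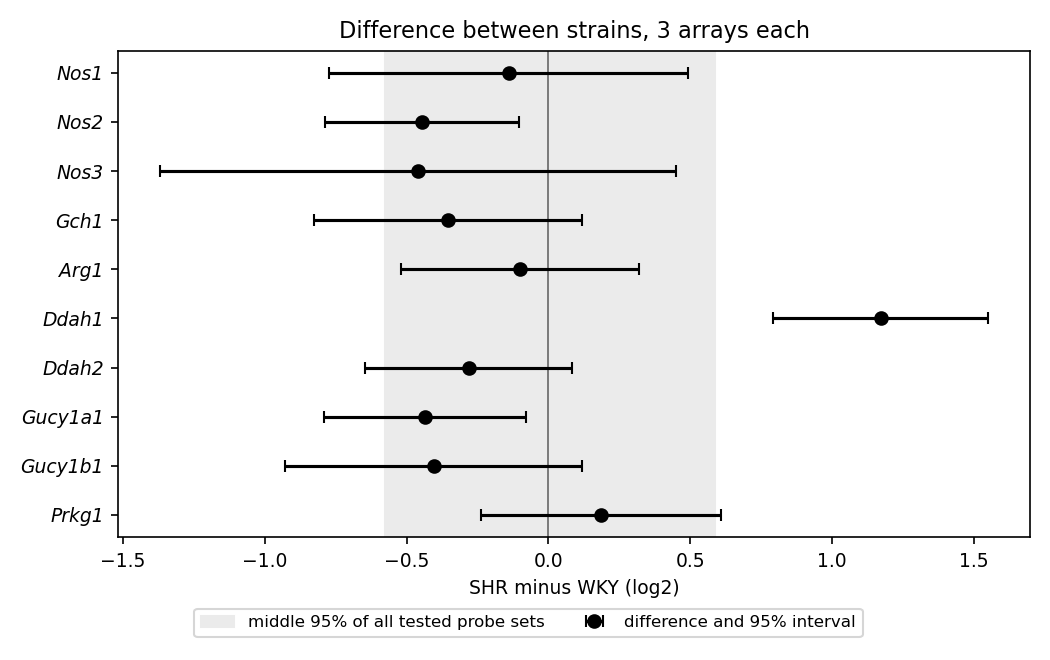
Difference between the strains for each of the 10 genes (horizontal axis, SHR minus WKY, log2), with bars for the 95% interval from limma and the middle 95% of all tested probe sets shaded, from -0.57 to 0.59. Ddah1, at 1.17, is the gene whose point lies outside the shaded range.

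Genes with a similar profile were sought for Nos3, Gucy1a1 and Gucy1b1 among 14792 named protein-coding genes, by the root mean square difference between profiles after each gene was centred over the 6 arrays. Nos3 was nearest to Fndc1 (0.10), Stard8 (0.12) and Slc28a2 (0.13). Gucy1a1 was nearest to Aplf (0.06), Aldh8a1 (0.07) and Klhl25 (0.07), and Gucy1b1 to Egln3 (0.06), Nr3c2 (0.08) and L3hypdh (0.08). Of these genes Aldh8a1 was dim, below the median of every array, and Slc28a2 lay below it on SHR replicates 2 and 3. The subunits lay 0.18 apart, which put Gucy1b1 at rank 571 from Gucy1a1 and Gucy1a1 at rank 139 from Gucy1b1. With 6 arrays these ranks are a description.

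The rest of the pathway was read from 4 lists with 34 genes, of which 29 were measured and 28 were bright enough to be tested. None passed in either direction, and the smallest limma adjusted p was 0.873. At an unadjusted p under 0.05 there were 5 of the 28, 3 higher and 2 lower in SHR, against 5.55% of all tested probe sets. The median difference over the 28 was -0.03.

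In arginine supply and recycling, 3 of 5 genes had a difference above 0, with a median of 0.47. Slc7a1, the main carrier of cationic amino acids into cells, had 4.95, 4.99 and 4.56 on the SHR arrays, against 4.62, 4.25 and 3.34 on the WKY arrays. Only SHR replicate 3 lay within the WKY range. The difference of 0.76 ± 0.32 (SE, limma adjusted p = 0.899) was 0.40 without WKY replicate 3. Slc7a2, a second carrier, had 7.20, 7.31 and 7.50 on the SHR arrays, against 6.85, 7.21 and 6.56 on the WKY arrays. Ass1, the argininosuccinate synthase that rebuilds arginine from citrulline, had 3.94, 3.54 and 3.72 on the SHR arrays, against 3.62, 2.70 and 2.99 on the WKY arrays. For both genes 1 SHR array fell below the highest WKY array. Their differences were 0.47 for Slc7a2 and 0.63 for Ass1, with limma adjusted p of 0.900 and 0.882. The Slc7a2 difference was 0.31 without WKY replicate 3. Asl, the next enzyme of the cycle, and Arg2, the mitochondrial arginase, differed by -0.16 and -0.15. Arg2 was dim, below the median of every array.

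In tetrahydrobiopterin synthesis and recycling, 4 of 6 genes were measured and 3 had a difference below 0. Gchfr, the feedback regulator of Gch1, differed by -0.46, which was -0.12 without WKY replicate 1 and -0.24 without SHR replicate 3. It lay below the array median on SHR replicates 2 and 3 and on WKY replicate 3. Qdpr, which recycles the cofactor, differed by -0.34, Spr, which makes its last step, by -0.14 and Pts, which makes the middle step, by 0.29. All 4 overlapped between the strains. The Qdpr difference was -0.16 without WKY replicate 1 and -0.17 without SHR replicate 3, and that of Pts was 0.048 without WKY replicate 3.

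Among partners and regulators of the synthases, 6 genes were tested. Nos1ap, an adaptor of the neuronal synthase, had 3.09, 3.58 and 3.30 on the SHR arrays, against 3.69, 3.71 and 4.22 on the WKY arrays. All SHR values were below all WKY values, and the difference was -0.55 ± 0.21 (SE, limma adjusted p = 0.873). Nostrin, which traffics the endothelial synthase, had 2.84, 3.35 and 2.75 on the SHR arrays, against 2.53, 2.70 and 2.61 on the WKY arrays. The strains were separate by 0.04, and the difference of 0.37 was 0.18 without SHR replicate 2. The chaperone gene Hsp90ab1 differed by 0.34, which was 0.14 without SHR replicate 1 and 0.18 without WKY replicate 3. Cav1, the caveolar protein that holds the endothelial synthase inactive, differed by -0.07, its kinase Akt1 by 0.10 and Nosip by -0.23. Agxt2, an aminotransferase that also degrades asymmetric dimethylarginine, fell under the filter on dim probe sets, with values from 0.68 to 0.91 over the arrays.

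Among other cyclase subunits and cyclic GMP effectors, 13 of 14 genes were tested, 5 with a difference above 0 and 8 below. Gucy1a2, the alpha2 subunit that can take the place of alpha1, had 5.45, 4.93 and 5.52 on the SHR arrays, against 4.72, 5.0 and 4.03 on the WKY arrays. The strains overlapped through SHR replicate 2 and WKY replicate 2, and the difference was 0.72 ± 0.28 (SE, limma adjusted p = 0.882). Its sign was opposite to that of Gucy1a1, and without WKY replicate 3 it was 0.44. Rgs2, a brake on vasoconstrictor receptors that the kinase activates, had 5.99, 6.52 and 5.94 on the SHR arrays, against 6.61, 6.70 and 6.62 on the WKY arrays. These did not overlap, and the difference was -0.49 ± 0.19 (SE, limma adjusted p = 0.876). Pde5a, the phosphodiesterase that breaks down cyclic GMP, had 7.20, 7.48 and 7.70 on the SHR arrays, against 7.73, 7.93 and 7.77 on the WKY arrays. The gap was 0.04 and the difference -0.35 (limma adjusted p = 0.923), which was -0.22 without SHR replicate 1.

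The remaining effectors all overlapped between the strains. Hspb6, a small heat shock protein of smooth muscle, differed by -0.57, with SHR and WKY arrays overlapping. Irag1, Ppp1r12a and Itpr1, which link the kinase to calcium release and myosin phosphatase, differed by -0.02, -0.03 and 0.06. The potassium channel gene Kcnma1 differed by 0.22, phospholamban (Pln) by 0.32, Vasp by -0.11 and Cyb5r3, which keeps the cyclase haem reduced, by 0.16. Gucy1b2 and Prkg2 were dim, at means of 1.61 and 1.27 in SHR and 1.82 and 1.27 in WKY.

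**Figure D5:**
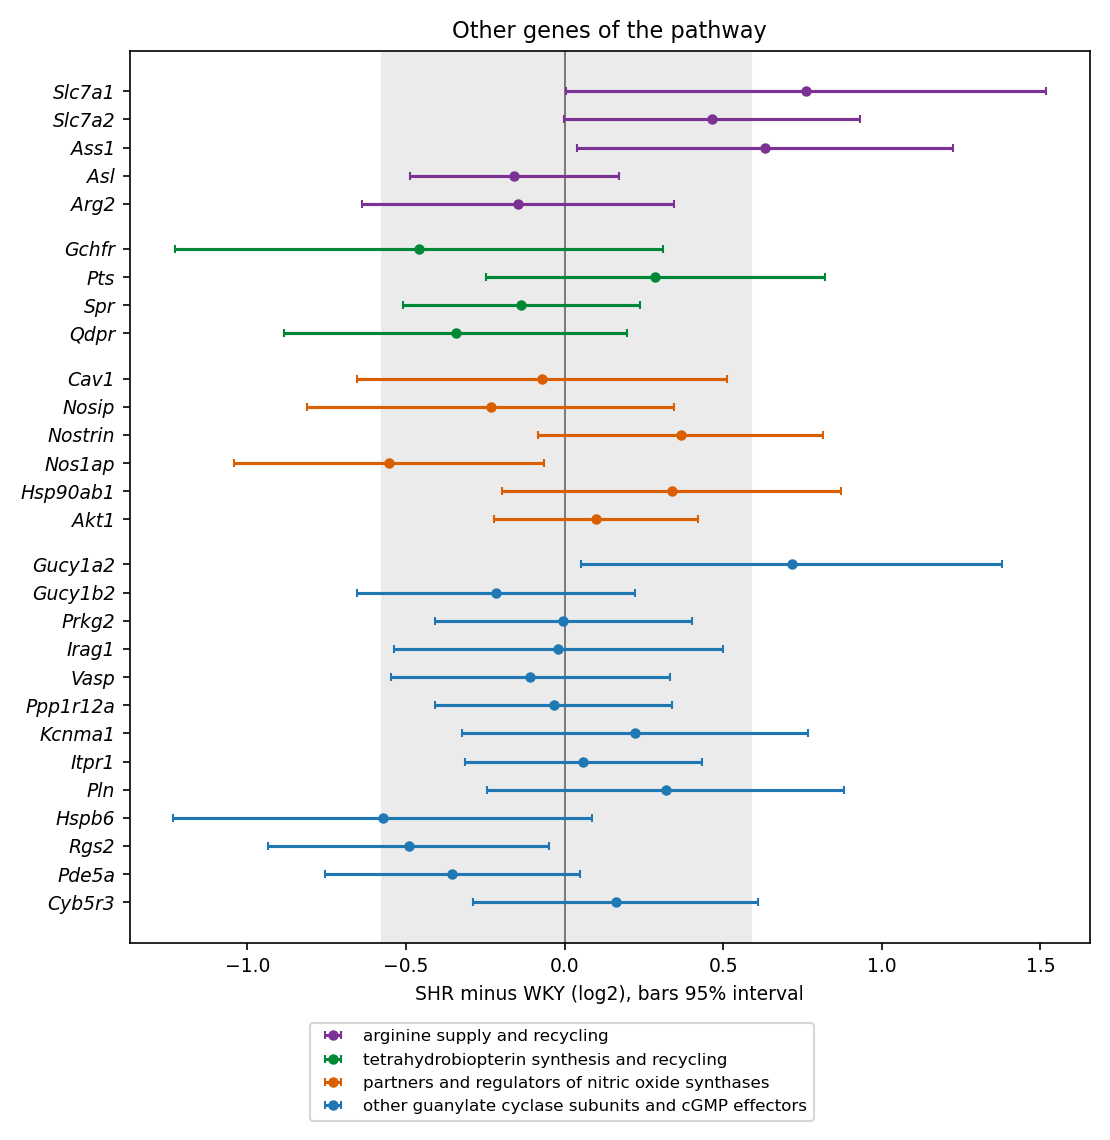
Difference between the strains (horizontal axis, SHR minus WKY, log2) for the 28 tested genes of the 4 pathway lists, coloured by list, with bars for the 95% interval and the middle 95% of all tested probe sets shaded. Slc7a1, Gucy1a2 and Ass1 lie to the right of the shaded range, and none of the 28 passed at an adjusted p under 0.05.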

How the data were processed

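Deposited values are log2 levels. The authors made them with RMA, run in Affymetrix Expression Console 1.2.1 according to the submitters' processing notes. The base of the logarithm follows from RMA and the range of values, and neither summarization level nor build is given in the sources used here. Strain and replicate number come from the sample titles. Of the probe sets, 18511 have 1 gene symbol, and Entrez identifiers gave 18394 of them a current RefSeq name.

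The main test was limma 3.58.1 (R 4.3.3; lmFit, then eBayes) with strain as the only term, on probe sets whose mean reached the 25th percentile, 1.17 on the log2 scale. Benjamini-Hochberg adjustment ran over all 21659. Differences are SHR minus WKY and tests are two-sided. The code of the fit was tested on simulated data with independent noise, which does not show how well the fit suits these arrays. Exact permutation tests served the 2 derived values. The members, lists and tests were chosen with earlier results of these data known. Named genes are the 10 members, the 3 genes of each pathway list with the smallest unadjusted p, and the 3 nearest profiles. Other list members and chromosomal neighbours were named after their values were seen. A gene with several probe sets is represented by the brightest. Promoters came from RefSeq (GRCr8), matched by symbol for 7 of the 10 members. The number of arrays limits the precision.

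Alternatives were a different filter on dim probe sets, a further normalization, another variance model, array weights, a replicate block, leaving out arrays and cell marker means as covariates.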

Additional observations from a re-analysis of the deposited data

How the results depend on the processing

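The count of members passing was 0 under every alternative but array weights, where it was 1 (Ddah1), with fitted weights from 0.22 for WKY replicate 3 to 2.05 for SHR replicate 2; the cause was not tested. The count over the pathway lists was 0 under every alternative. Over all probe sets 15 passed, against 65 with array weights and 115 without SHR replicate 1 and WKY replicate 3 together. There were 37 with the smooth muscle covariate (added after seeing the data), 3 with a replicate block, and 2 to 5 when 1 array was left out. Fewer arrays enter the fit where any were left out, and the cause of these changes in count was not tested. Same-numbered arrays deviated together with correlations of 0.35, -0.08 and 0.23, and differently numbered arrays with -0.32 to 0.17. The sample titles name no pairs, and the main fit did not take the numbers as pairs. With the replicate block the limma adjusted p for Ddah1 was 0.193. The Nos3 difference in that fit was -0.46 ± 0.18 (SE, limma adjusted p = 0.758). Over its 18 alternatives the Ddah1 difference ranged from 1.05 to 1.24 and its limma adjusted p from 0.0251 to 0.454. The sign held in every alternative for 7 of the 10 members. It turned for Nos3 with the endothelial covariate (0.019), for Nos1 with that covariate (0.086), and for Arg1 with array weights (0.014), without SHR replicate 1 and WKY replicate 3 together (0.12) and with the smooth muscle covariate (0.039). When 1 array was left out, Nos1 ranged from -0.39 to 0.030 and Arg1 from -0.20 to 0.015. Of the 12 named pathway genes only Hsp90ab1 turned, to -0.017 without SHR replicate 1 and WKY replicate 3. Nos3 relative to endothelial markers ranged from 0.02 to 0.25 when 1 array was left out, and Gucy1a1 relative to Gucy1b1 from -0.16 to 0.14, turning without WKY replicate 3. Paired by replicate number, these 2 derived values had an exact permutation p of 0.75 each. With 3 pairs this test cannot reach a p under 0.05, so it decides nothing. Leaving out 1 array moved the difference of 7 of the 10 members by more than 1.5 times. Each member rests on 1 probe set and dim probe sets have no detection call, so levels near the array medians give no fold.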
